A study of Mus musculus with 6 samples.

Results

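The Mediator kinase module is described here by its 7 genes, Cdk8, Cdk19, Ccnc, Med12, Med12l, Med13 and Med13l, found by symbol among the 52636 genes of the expression table. All 7 were found once and all 7 averaged at least 0.5 FPKM, so all are among the 16157 genes tested. FPKM are fragments counted per kilobase of exon and scaled for the depth of the library. The genes were chosen by name, on the very high FPKM of Cdk8, so the levels of Cdk8 are a description and carry no test. Its p-values in the fit over all tested genes use those same values and are given as a description too. RNA of mouse optic nerve was sequenced as ribosome-depleted, stranded total RNA in 6 libraries. The treatment label is mCherry, a red fluorescent protein, for 3 of them, and Mutant human ND6T14484C, here called hND6, for the other 3. Mitochondrial DNA normally encodes ND6, which belongs to respiratory complex I. The labels give both groups the same protocol, an injection of lentivirus with the mutant gene into the eye, so what mCherry libraries received is unclear from them. Strain, age and sex, the promoter of the vector, and whether a library holds 1 nerve or a pool are not given in the sources used here. P-values therefore measure only how these libraries vary, and that variation may be technical.

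Mediator is a large complex that passes signals from transcription factors bound to enhancers on to RNA polymerase II. Its kinase module joins and leaves the core complex: cyclin C (Ccnc) activates a kinase, CDK8 or its paralog CDK19, MED12 stimulates that kinase, and MED13 ties the module to the core. MED12L and MED13L are vertebrate paralogs of MED12 and MED13. Since these proteins work in one assembly, the question was whether the very high Cdk8 value is shared by its partners and paralogs, in each library and between the groups.

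Cdk8 and Cdk19 are alike as proteins, so their transcripts were compared first to see whether reads of one could be counted for the other. The 2 stretches below are the most alike 90 bases of their coding sequences, bases 34 to 123 of each, in exon 1 of both genes. They come from GENCODE M21 transcripts on GRCm38, at chr5:146231726-146231815 and chr10:40349627-40349716, both on the plus strand. They are shown in the 5′ to 3′ direction, with the 12 bases that differ in capitals.
Cdk8: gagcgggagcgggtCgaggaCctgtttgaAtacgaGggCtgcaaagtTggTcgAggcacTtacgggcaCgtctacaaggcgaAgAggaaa
Cdk19: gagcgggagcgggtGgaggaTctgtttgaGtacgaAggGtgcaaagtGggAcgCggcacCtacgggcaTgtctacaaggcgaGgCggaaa

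Even in this stretch 78 of 90 bases are the same, and over 1388 aligned coding bases 75.2% are. The longest identical run between the 2 coding sequences is 23 bases, and their annotated transcripts share no run of 31 bases. Identity is lower for the other pairs of paralogs, 66.7% for Med12 and Med12l and 64.1% for Med13 and Med13l, with longest identical runs of 24 and 20 bases. No member shares a run of 31 bases with another member. Of 9816 different 31-base runs in Cdk8 transcripts 873 occur in transcripts of other genes. The processed pseudogene Gm7107, which is not analysed here, holds 736 of these, and 8 occur in the 20 most abundant genes of this table. Introns were not compared, because no genome sequence was used here.

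Cdk8, the kinase of the module, stood at 653, 559 and 1925 FPKM in mCherry 1, 2 and 3 and at 2092, 2898 and 2884 FPKM in hND6 1, 2 and 3. The mCherry 1 and 2 libraries were low, whereas mCherry 3 lay just under the lowest hND6 library. The gene (ENSMUSG00000029635, chr5:146231288-146302874, plus strand, 13 exons) had between 55115 and 212971 assigned reads per library, 0.159% to 0.841% of all assigned reads. Among 22027 protein-coding genes its FPKM ranked 15, 18 and 5 in the mCherry libraries and 6, 5 and 5 in the hND6 libraries. Only 5 protein-coding genes had a higher mean. The highest library exceeded the lowest 5.18-fold, a wider range than for any other member.

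Cdk19, the paralog that can take the place of CDK8 (chr10:40349308-40483818), stood at 76.3, 96.1 and 55.2 FPKM in mCherry 1 to 3 and at 62.0, 70.4 and 71.1 FPKM in hND6 1 to 3. The hND6 libraries all lay between the lowest and the highest mCherry library. Cdk19 was the second most abundant member, and in each library it was far below Cdk8. The ratio of Cdk8 to Cdk19 in FPKM was 8.57, 5.82 and 34.9 in mCherry 1 to 3 and 33.7, 41.2 and 40.6 in hND6 1 to 3. For this ratio mCherry 3 lay among the hND6 libraries.

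Ccnc, the cyclin that activates both kinases (chr4:21727701-21750546), was nearly constant. It stood at 8.05, 7.81 and 7.46 FPKM in mCherry 1 to 3 and at 7.35, 8.04 and 7.40 FPKM in hND6 1 to 3. Its coefficient of variation over the 6 libraries was 4.18%, against 56.2% for Cdk8 and 19.6% for Cdk19. Ccnc had the fewest assigned reads of the 7 members in each library, 551 to 902.

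Med12, which stimulates the kinase through cyclin C (chrX:101274030-101297465), stood at 12.1, 11.6 and 8.26 FPKM in mCherry 1 to 3 and at 9.21, 10.7 and 9.75 FPKM in hND6 1 to 3. Its paralog Med12l (chr3:59006487-59318682) was the least abundant member, at 3.50, 4.63 and 6.99 FPKM in mCherry 1 to 3 and 5.28, 2.75 and 3.42 FPKM in hND6 1 to 3. Both genes overlapped between the groups. The library with the lowest Med12, mCherry 3, had the highest Med12l, and the ratio of Med12 to Med12l ran from 1.18 in mCherry 3 to 3.90 in hND6 2.

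Med13, the link of the module to core Mediator (chr11:86267033-86357602, minus strand), stood at 19.2, 19.6 and 15.99 FPKM in mCherry 1 to 3 and at 16.6, 17.5 and 16.8 FPKM in hND6 1 to 3. Its groups overlapped. Med13l (chr5:118560719-118765438) stood at 20.5, 22.1 and 21.4 FPKM in mCherry and at 19.5, 16.6 and 17.5 FPKM in hND6, so all 3 hND6 libraries lay below all 3 mCherry libraries. Med13l and Cdk8 were the 2 members whose groups did not overlap, in opposite directions. Among all tested genes 22.8% had groups that did not overlap, in either direction. Against that background these 2 members are no result about the module.

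**Figure D1:**
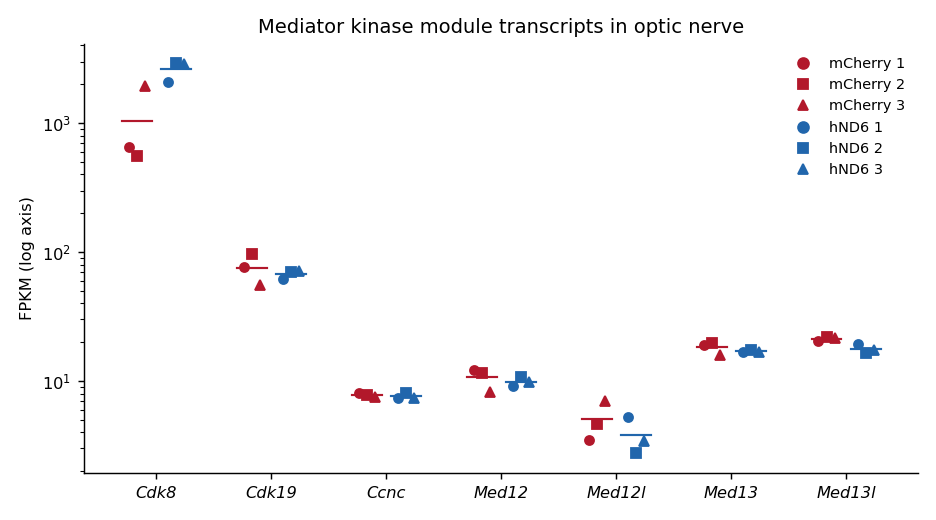
FPKM of the 7 kinase module genes (log axis) in each library, with mCherry in red and hND6 in blue; each symbol is 1 library and each bar the group mean (n = 3). Cdk8 is at 559 FPKM or more in every library and no other member exceeds 96.1 FPKM.

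Ordered by mean FPKM over the 6 libraries, the members ran from Cdk8 (1835 ± 1032, SD) through Cdk19 (71.8 ± 14.0), Med13l (19.6 ± 2.17), Med13 (17.6 ± 1.45), Med12 (10.3 ± 1.48) and Ccnc (7.68 ± 0.321) to Med12l (4.43 ± 1.55). Of neighbours in this order, only Med13l and Med13 overlapped in their ranges over libraries. Cdk8 made up 82.4%, 77.6% and 94.4% of the summed FPKM of the module in mCherry 1 to 3 and 94.6%, 95.8% and 95.8% in hND6 1 to 3. The high Cdk8 value was therefore not shared by any partner or paralog. Cdk19 was itself well above most genes, with rank 535 by mean FPKM among 22027 protein-coding genes. The median tested gene averaged 7.996 FPKM, a level near those of Ccnc and Med12.

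The levels depend on dividing by exon length, and 7 genes nested inside members on the same strand had no read in any library, while 5 of 7 nested on the opposite strand did. Among the former is the processed pseudogene Gm15739 inside Cdk8. The sources used here do not say whether reads in introns were counted, so levels were also set per kilobase of whole gene span. On that scale Cdk8 had 75.0 reads per kilobase of span per 1000000 assigned reads. Cdk19 had 3.04, Med12 2.99, Med13 2.01, Ccnc 1.15, Med13l 0.875 and Med12l 0.154. Cdk8 led on this scale as well, and the order of the rest changed: Med12 moved above Med13 and Med13l, and Med13 and Ccnc above Med13l. The scale uses the same assigned reads, so it cannot tell whether they lay in exons or introns.

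Genes beside Cdk8 on chromosome 5 did not share its level. Rnf6, a ubiquitin ligase gene that ends 9733 bp before Cdk8, stood between 8.69 and 10.1 FPKM in the 6 libraries. Wasf3, an actin regulator that starts 82111 bp after it, stood between 16.5 and 20.4 FPKM. Among the 10 nearest genes averaging at least 0.5 FPKM, 5 on each side, the highest was the ribosomal protein gene Rpl21, at 41.6 to 74.5 FPKM.

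Compared by group, Cdk8 averaged 2625 ± 461 FPKM (SD, n = 3) with hND6 and 1046 ± 763 FPKM (SD, n = 3) with mCherry. Its log2 fold change on the log2(FPKM + 0.5) scale was 1.54 ± 0.49 (SE), a 2.92-fold difference that did not pass (limma, unadjusted p = 0.0188, adjusted p = 0.255). By size the difference was among the largest, since 66 of 16157 tested genes (0.408%) had a larger log2 fold change upward. By p it was not, since 1188 genes had a smaller one. In this fit 7 genes passed the adjusted threshold of 0.05, 0.0433% of those tested, and none of the 7 is a member of the module. Groups were separate with hND6 higher for 12.6% of tested genes, and Cdk8 is 1 such gene.

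The call on Cdk8, a description since its values chose the gene, turned on mCherry 3. Without that library the log2 fold change was 2.10 and passed (limma adjusted p = 0.0453, against 0.0453 to 0.97 over the 21 alternatives). In that fit 131 genes passed, 0.811% of those tested, so Cdk8 passed along with many others. Leaving out the other libraries 1 at a time gave 1.21 to 1.70, none of them past the threshold. With mCherry 3 and hND6 1 both removed, an alternative added with the data in view, it was 2.26 (limma adjusted p = 0.0987).

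Med13l had a log2 fold change of -0.25 ± 0.09 (limma unadjusted p = 0.0248, adjusted p = 0.272). Groups were separate with hND6 lower for 10.2% of tested genes, a background against which 1 of 7 members is no result about the module. The other 5 members lay within 0.36 of 0 on the log2 scale. Med12l had -0.35 ± 0.30, Cdk19 -0.13 ± 0.20, Med13 -0.10 ± 0.10, Med12 -0.09 ± 0.16 and Ccnc -0.03 ± 0.09 (limma adjusted p from 0.616 to 0.893). Cdk8 was thus the only member above 0 and 6 of 7 lay below it, with a median of -0.10 beside -0.01 for all tested genes. After the trend with gene span was taken out of each library, 3 of the 7 lay above 0.

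The difference of Cdk8 from its partners was also taken within libraries, which cancels any scaling of a whole library. The log2 ratio of Cdk8 to Cdk19 was 5.25 ± 0.161 in hND6 and 3.58 ± 1.36 in mCherry (SD, n = 3 each). The log2 ratio of Cdk8 to the median of the other 6 members was 7.604 ± 0.228 and 5.95 ± 1.19. The share of Cdk8 in all summed FPKM was 0.599 ± 0.0855% in hND6 and 0.261 ± 0.180% in mCherry. These 3 measures hold the Cdk8 level that chose the genes, so they are given as a description. The 6 other members summed to 124 ± 3.48 FPKM in hND6 and 139 ± 23.3 FPKM in mCherry (two-sided exact permutation p = 0.4, where 3 against 3 libraries cannot go below 0.1).

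**Figure D2:**
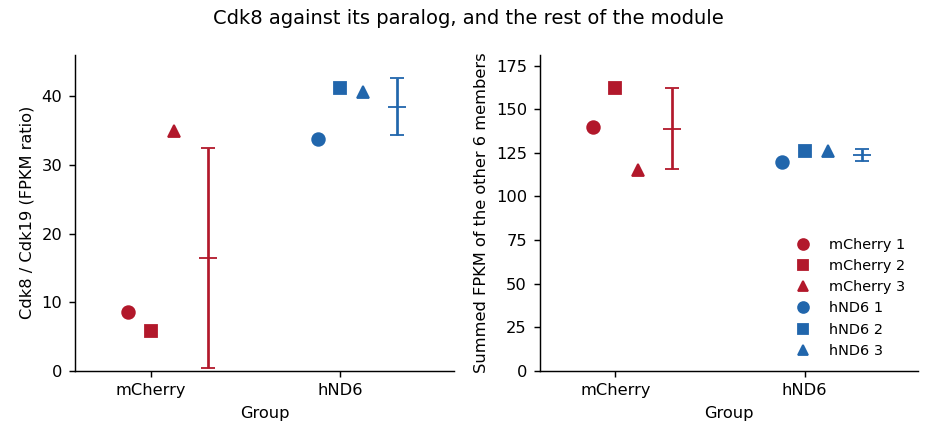
Left, the ratio of Cdk8 to Cdk19 FPKM, and right, the summed FPKM of the other 6 members, in each library (symbols) with the group mean and SD (bars, n = 3). The ratio is 8.57 and 5.82 in mCherry 1 and 2 and at least 33.7 in the other 4 libraries, while the sums overlap between the groups.

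Across the 6 libraries Cdk8 correlated negatively with each other member, weakly so with Med12l. Its Pearson correlation on the log2 scale was -0.84 with Med13, -0.77 with Med13l, -0.68 with Cdk19, -0.67 with Med12, -0.46 with Ccnc and -0.12 with Med12l. Med12, Med13 and Cdk19 varied together, with r = 0.95 for Med12 and Med13, 0.91 for Cdk19 and Med13 and 0.86 for Cdk19 and Med12. These are descriptions over 6 libraries that all genes share, without a test.

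The genes whose profile over the libraries was most like that of Cdk8 were short ones. Likeness was the Pearson r on the log2 scale among 1922 tested genes that varied at least 0.5 times as much as Cdk8. The closest were the predicted gene Gm5617 (r = 0.99), Dpm3, a subunit of the dolichol-phosphate mannose synthase (0.99), the linker histone gene Hist1h1e (0.98), the pseudogene Gm10736 (0.97) and the core histone gene Hist1h4d (0.97). Hist1h1e, for example, stood at 7.63, 7.88 and 12.2 FPKM in mCherry 1 to 3 and at 14.7, 18.3 and 17.9 FPKM in hND6 1 to 3. As with Cdk8, mCherry 1 and 2 were low and mCherry 3 lay next to hND6 1.

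Of the 22 genes with r of at least 0.9 all spanned under 10 kb, with a median of 620 bp, whereas 44.1% of the 1922 genes did. Cdk8 itself spans 71587 bp. For Cdk19, 12768 genes varied enough to be compared by the same rule, a wider pool that holds less variable genes. Its closest were Cdk5rap2, Mxi1, Osbpl5, Zfp598 and Fmo2 (r = 0.99 each), which span 12264 to 193588 bp.

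**Figure D3:**
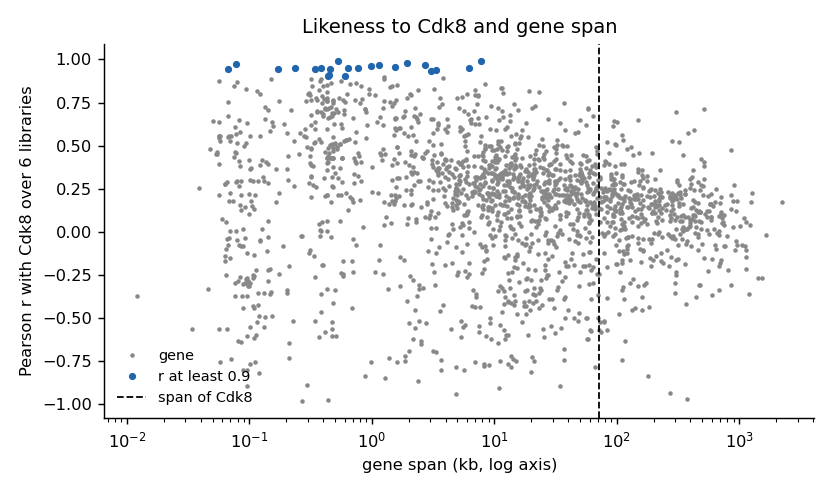
Pearson r with Cdk8 over the 6 libraries (vertical axis) against gene span in kb (log axis), 1 point per gene for 1922 genes. The 22 genes with r of at least 0.9 (blue) all lie far left of the dashed line that marks the span of Cdk8.

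Cdk8 was also set beside ribosomal RNA and genes known to collect ribosomal-RNA-like reads. Of 23 listed, 19 were found and 14 tested. The nuclear precursor, small-subunit and large-subunit ribosomal RNAs were listed but not found by name, so their levels are not included. The r of the tested ones with Cdk8 ran from -0.65 (Jarid2) to 0.82 (Gm42418). Gm42418 stood at 2286, 2662 and 3252 FPKM in mCherry 1 to 3 and at 3179, 6231 and 4120 FPKM in hND6 1 to 3. As with Cdk8, mCherry 1 and 2 were lowest and mCherry 3 lay next to hND6 1. Gm26917 stood at 6926, 9618 and 9398 FPKM in mCherry 1 to 3 and at 7466, 7824 and 9810 FPKM in hND6 1 to 3 (r = 0.13 with Cdk8). Gm23935, the most abundant of the list, had r = 0.65. Mir6236 had a log2 fold change of 1.97 (r = 0.80) and Cmss1 of 1.53 (r = 0.70), both highest in hND6 2. Lars2, a mitochondrial leucyl-tRNA synthetase gene in this list, stood at 105 FPKM in hND6 2 and at 13.01 to 26.7 FPKM elsewhere, whereas Cdk8 was as high in hND6 3 as in hND6 2. The mitochondrial ribosomal RNA mt-Rnr1 likewise peaked in hND6 2, at 251 FPKM against 6.51 to 46.0 FPKM elsewhere (r = 0.80). In hND6 12 of these 14 lay higher, with 0.57 as the median log2 fold change and 6 with separate groups upward (12.6% of all tested genes), and none passed (smallest limma adjusted p = 0.243). Cdk8 transcripts share 4 runs of 31 bases with transcripts of the list, a count that covers only listed names with an annotated transcript. Introns were not compared, and the part of ribosomal-RNA-like reads in the Cdk8 level was not tested.

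**Figure D4:**
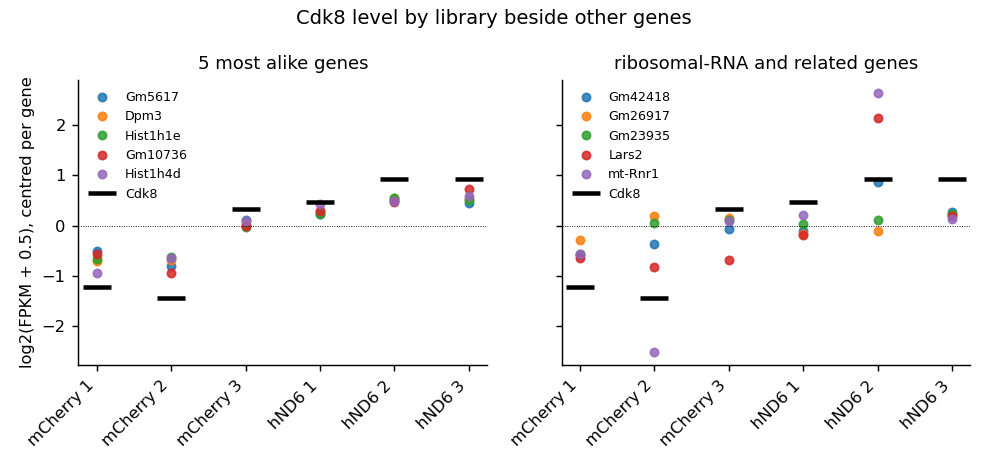
Level on the log2(FPKM + 0.5) scale, centred per gene, in each library for Cdk8 (black bars), beside the 5 most alike genes (left) and 5 ribosomal-RNA and related genes (right); each point is 1 gene in 1 library. The left-hand genes follow Cdk8 with smaller excursions, whereas Lars2 and mt-Rnr1 stand out in hND6 2.

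Depth and tissue make-up were read for the same libraries. Assigned reads ran from 25718356 to 34758873 in mCherry and from 20253637 to 34057682 in hND6, and Cdk8 was highest in the 2 shallowest libraries (r = -0.72 over 6 libraries between its log2 level and the reads assigned). All 8 oligodendrocyte markers and all 8 astrocyte markers were detected, as the tissue label would have it, with summed levels of 4629 to 7661 and 1530 to 2547 FPKM per library. Neuron markers summed to 539 FPKM in mCherry 3 and 201 FPKM in hND6 1, against 28.0 to 52.8 FPKM in the other 4. Cdk8 was also higher in mCherry 3 than in mCherry 1 and 2, whereas hND6 2 and 3, with the highest Cdk8, had 32.9 and 52.8 FPKM of neuron markers. Med12l was highest in these same libraries, mCherry 3 and hND6 1. The part of neuronal RNA in the Cdk8 and Med12l levels was not tested, and fewer cells of a type and less RNA per cell cannot be told apart in such bulk samples.

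Erythroid markers (7 of 8 found, all 7 with separate groups) summed to 1365 to 2603 FPKM in hND6 and 180 to 468 FPKM in mCherry, and plasma cell markers (7 of 8 with separate groups) to 90.04 to 204 and 35.8 to 48.0 FPKM. In mCherry 3, where Cdk8 was 1925 FPKM, they summed to 366 and 37.0 FPKM, and in mCherry 1, where Cdk8 was 653 FPKM, to 468 and 48.0 FPKM. Over the 6 libraries the hemoglobin gene Hbb-bt had r = 0.85 with Cdk8 and the antibody joining chain gene Jchain r = 0.79. Astrocyte and microglia markers also had separate groups upward, 5 of 8 and 4 of 8, beside 12.6% of all tested genes. The part of these cell types in the Cdk8 level was not tested. Photoreceptor markers summed to 214 FPKM in hND6 2 and 6.32 to 12.2 FPKM elsewhere. The Schwann cell marker Pmp2 was listed at 0 in all libraries, and no other marker found was.

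Med12l shares its locus with purinergic receptor genes on the opposite strand. P2ry12, a receptor of resting microglia that lies wholly within Med12l, stood at 14.0, 15.7 and 15.0 FPKM in mCherry 1 to 3 and at 21.4, 22.9 and 21.5 FPKM in hND6 1 to 3, with separate groups. The means of Med12l went the other way, from 5.04 ± 1.78 FPKM (SD, n = 3) with mCherry to 3.81 ± 1.31 FPKM (SD, n = 3) with hND6. The library kit keeps strand, but the sources used here do not say whether counting used it. Of 12869 different 31-base runs in Med12l transcripts, 1918 also occur on the opposite strand in Igsf10 (mean 1.37 FPKM). For Med13, 690 of 10823 occur so in Brip1os (9.17 FPKM). The same holds for 220 of 5171 runs of Ccnc in Tstd3 (3.47 FPKM) and 239 of 5903 of Cdk19 in Cdk19os (0.307 FPKM). On the same strand, 704 of 7825 runs of Med12 occur in Gm21986 (0.121 FPKM). Values of Med12l and of the genes inside it are therefore uncertain to that extent, as are those of Med12, Med13, Ccnc and Cdk19.

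The core of Mediator, which the kinase module binds, had no member past the threshold. Its head, which contacts RNA polymerase II, had 7 of 10 tested members above 0, with a median of 0.13. Separate groups were found for 3 members upward (12.6% of all tested genes), among them Med29 (5.17 ± 0.432 against 3.81 ± 0.530 FPKM), and for 2 downward (10.2% of all tested genes), among them Med27 (37.2 ± 3.11 against 46.9 ± 1.403 FPKM, limma adjusted p = 0.199). Med20 averaged 0.00316 FPKM and was not tested. On the TPM scale, where each library sums to the same total and the median of all genes is -0.14, the median of the head was 0.00 to 2 decimals, at -0.0049.

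Of the middle of Mediator 6 of 9 members lay higher (median 0.06). The lowest log2 fold change was that of Med21, at 13.8 ± 1.45 against 17.9 ± 1.27 FPKM. Of the tail, which meets transcription factors, 2 of 6 lay higher (median -0.11), with Med16 at 9.53 ± 0.0634 against 8.19 ± 0.411 FPKM and Med14 at 7.59 ± 0.398 against 9.22 ± 0.799 FPKM. On the TPM scale the median of the middle was -0.07, and it was -0.05 with the span trend removed. In the 25 tested core genes the mean level ran from 3.396 FPKM to 42.0 FPKM, a range that holds the partners of Cdk8 and lies below Cdk19 and Cdk8.

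RNA polymerase II, the enzyme that Mediator regulates, had all 12 subunit genes above 0 (median 0.25), and 3 with separate groups upward, beside 12.6% of all tested genes: Polr2e (18.7 ± 1.15 against 13.03 ± 2.84 FPKM), Polr2f (32.9 ± 3.78 against 26.7 ± 2.34) and Polr2i (9.28 ± 1.80 against 5.43 ± 1.59). None passed (smallest limma adjusted p = 0.239), and 10 of 12 lay above 0 on the TPM scale.

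The other kinases and cyclins that act on transcription lay the opposite way from Cdk8. All 12 were below 0 (median -0.22), 6 with separate groups downward, beside 10.2% of all tested genes, and none passed (smallest limma adjusted p = 0.225). The elongation kinase gene Cdk12 stood at 15.1 ± 0.147 against 18.3 ± 0.987 FPKM, and the cyclin genes Ccnl1 at 23.4 ± 1.35 against 29.9 ± 3.55 and Ccnl2 at 35.7 ± 1.18 against 43.9 ± 3.69 FPKM. With quantile normalisation 2 of the 12 lay above 0, and without mCherry 3 1 did. Gene span moved with these lists: the median span was 5761 bp for the polymerase subunits and 26683 bp for the kinases and cyclins, beside 20185 bp for all tested genes. With each library's span trend removed, the medians were 0.14 and -0.17, and what span contributes beyond that was not tested.

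**Figure D5:**
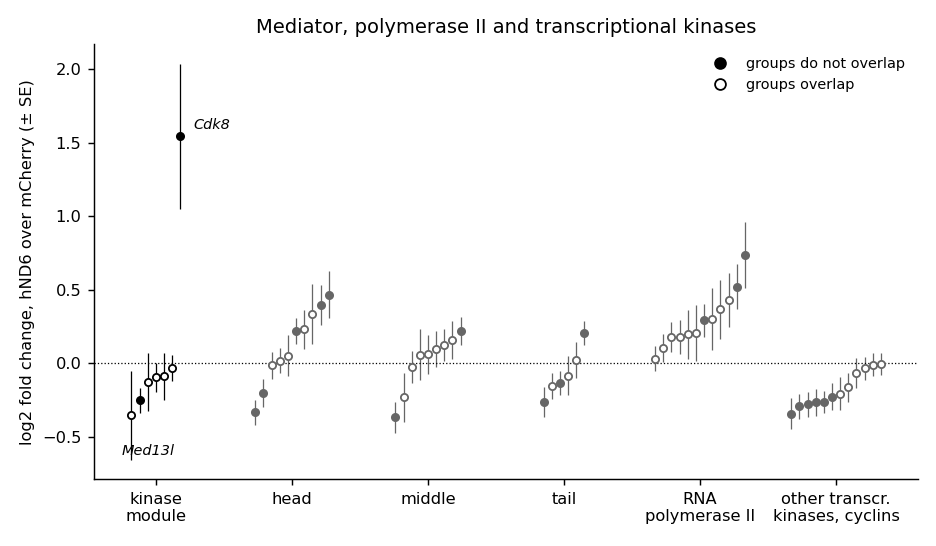
Log2 fold change of hND6 over mCherry with its SE (limma) for each tested gene of the kinase module, the head, middle and tail of Mediator, RNA polymerase II, and the other transcriptional kinases and cyclins; filled symbols mark separate groups. Cdk8 lies at 1.54, above every other gene shown, with the widest SE, 0.49.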

How the data were processed

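The deposited values are FPKM made by the authors, per the labels. Software listed without roles in the submitters' processing notes is STAR, HTSeq, Trim Galore and CASAVA 1.4, with the builds mm10 and GRCm38. The tables of single libraries and the combined table did not differ. Multiplied by exon length, the FPKM gave whole reads for at least 99.9954% of values above 0 (within 0.1 read), and these are the assigned reads. Genes averaging at least 0.5 FPKM were tested on log2(FPKM + 0.5) in R 4.3.3 with limma 3.58.1 (moderated test with an intensity trend, two-sided, Benjamini-Hochberg over all tested genes). The summed level of the other 6 members was tested by exact two-sided permutation over libraries. Ratios and shares that hold the Cdk8 level are given without a test, and limma p-values of Cdk8 are descriptive. Fold changes on this scale understate changes of low genes. The fit was tested on simulated data, drawn as independent counts without an outlying library, so that test does not cover data with one. Coding sequences were aligned with Biopython 1.88. The members and gene lists were chosen with earlier results of these data known. Genes named are the members, their neighbours and overlapping genes, the most alike genes, and per list those of smallest p or highest level; other genes named were chosen after their values were seen. Alternatives were other pseudocounts, filters, scalings, test settings and left-out libraries.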

Additional observations from a re-analysis of the deposited data

How the results depend on the processing

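Cdk8 lay higher in hND6 in all 21 alternatives, by 1.15 (quantile normalisation) to 2.26 on the log2 scale. Leaving out each library gave 1.21 to 2.10, and only without mCherry 3 did it pass. Ccnc, Med12l and Med13l lay lower in all 21. Many of these alternatives could not change a sign. Other filters, other estimates of spread and a block for the replicate number leave the fold change as it is. Leaving out libraries cannot reverse Cdk8 or Med13l, whose groups are separate. The sign of Cdk19 changed to 0.033 with the span trend removed and to 0.061 without mCherry 2, that of Med13 to 0.023 with the span trend removed, and that of Med12 to 0.0095 without mCherry 1; the cause was not tested. Single libraries left out gave -0.34 to 0.061 for Cdk19 and -0.26 to 0.0095 for Med12. The 7 genes past the threshold became 0 with no filter (3060 at an unadjusted p under 0.05) and 0 with voom on recovered reads (2464 unadjusted), and 1 with mCherry 3 and hND6 1 left out (3289 unadjusted). Leaving out single libraries gave 0 (without mCherry 2, 1948 unadjusted) to 131 (without mCherry 3), and 1, 1 and 2 without mCherry 1, hND6 1 and hND6 2.

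With the replicate number as a block 0 genes passed (limma, 1789 unadjusted), and Cdk8 kept 1.54 (limma adjusted p = 0.424). Within numbers the Cdk8 share differed by 0.338 percentage points. Deviations from the group mean correlated at -0.42, 0.36 and -0.20 for same-numbered libraries, and mCherry 3 correlated best with hND6 1 (0.56). Deviations within a group are not independent, so these values cannot tell whether equal numbers mark pairs. The Cdk8 to Cdk19 log2 ratio differed by 1.15 to 2.44 with single libraries left out. Depth limits Cdk8 little, at 55115 reads or more per library, and the low members more, down to 551 reads.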

Other observations

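Proteins that the kinase module phosphorylates or that act on it were listed as 13 genes, and none passed (smallest limma adjusted p = 0.31). Of these 7 lay higher and 6 lower in hND6, with a median log2 fold change of 0.01 beside -0.01 for all tested genes. Fbxw7, the ubiquitin ligase subunit that marks MED13 for degradation, stood at 12.95 ± 2.48 against 18.7 ± 4.40 FPKM (SD, n = 3 each), a difference of -0.51 ± 0.20 on the log2 scale (limma adjusted p = 0.31). Groups were separate upward for Ctnnb1, which encodes beta-catenin (105 ± 4.81 against 93.0 ± 1.79 FPKM), and for Srebf1, a regulator of lipid synthesis (44.2 ± 4.26 against 35.3 ± 6.83 FPKM). These 2 of 13 are near the 12.6% of all tested genes that had separate groups upward.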
